A study of Mus musculus with 2 samples.

Results

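The genes described are 10 members of the NF-kB pathway, chosen by symbol among the 32285 gene rows of both deposited matrices, and all 10 were found. They are the 5 subunit genes Nfkb1, Nfkb2, Rel, Rela and Relb, the inhibitor genes Nfkbia and Nfkbie, the nuclear co-activator gene Nfkbiz, the ubiquitin-editing gene Tnfaip3 and the co-regulator gene Bcl3. Their values are UMIs (unique molecular identifiers, each counting 1 captured mRNA molecule), added up within each class and hashtag group and scaled to 1000000 UMIs of the same cells (CPM).

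NF-kB is a family of dimeric transcription factors that switch on genes of inflammation, survival and lymphoid development. In resting cells the dimers are held in the cytoplasm by inhibitors such as IkB-alpha (Nfkbia) and IkB-epsilon (Nfkbie), which are degraded once the IKK kinases phosphorylate them. Several members, among them Nfkbia, Nfkbie, Tnfaip3, Nfkb2, Relb and Rel, are themselves textbook NF-kB targets, so their mRNA is often used as a readout of pathway activity. In neutrophils and macrophages the pathway is known for cytokine and chemokine genes, in B cells for maturation and survival.

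The study placed 4T1 mammary tumor cells in the liver of BALB/cAnNCrl mice and gave CBL0137, a curaxin known to act on the FACT histone chaperone and on NF-kB signaling, by hepatic artery infusion. Each library pooled 3 hashtag groups, vehicle (A0301), low dose (A0305) and high dose (A0310), and the labels do not give the dose in mg of each hashtag group. All groups share the strain, the tumor and the infusion route. The labels give the same enzymatic dissociation for both libraries, whereas the study's methods describe mechanical disruption of spleens and a CD11b bead isolation. Both matrices nonetheless held B cell-like and T cell-like classes. The mice of a group were pooled before capture. The matrices comprise 1 library labelled liver with 9591 cell barcodes and 1 labelled spleen with 4830.

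The tissue labels went against the tissue markers. Kupffer cell markers summed to 7.09 CPM in the liver-labelled library and to 375 CPM in the spleen-labelled library, hepatocyte markers to 0.0728 and 72.8 CPM, and splenic markers to 146 and 37.6 CPM, so each is called below only by its label. Exactly 1 hashtag was called for 8435 barcodes of the liver-labelled library (3103 vehicle, 3194 low dose, 2138 high dose) and for 2988 of the spleen-labelled library (822, 1301 and 865). In the latter, 1627 barcodes had no hashtag called, and the A0310 count was the largest in 1532 of them. The median depth was 4673 and 3368.5 UMIs per barcode, and 15 barcode sequences occurred in both libraries. With 1 pool of mice per group and library no difference could be set against a spread between animals. Intervals are exact 95% intervals that cover counting error only, and a difference is counted where it exceeds 1.5-fold (0.58 on the log2 scale) for genes whose UMIs in the compared groups summed to 50 or more. In summed RNA of a class, fewer cells of a state and less RNA per cell cannot be told apart.

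The region before the start of several members carries kappaB motifs, and 3 of these windows are shown as examples, those of the inhibitor genes Nfkbia and Nfkbie and of the subunit gene Rel, which are among the members described by class and group below. The 10-letter kappaB consensus, searched on both strands in the 250 bases before each RefSeq start, occurred in 3.9% of 32851 windows of that length and in 7 of the 10 windows of the 7 members in the table. Windows of Nfkb2, Nfkbia, Nfkbie, Rel and Tnfaip3 held it, those of Bcl3 and Rela did not, and Nfkb1, Relb and Nfkbiz were not in the table. A match is a run of letters and not a measured binding site. Sequences are from RefSeq on GRCm38.p6, 5′ to 3′ on the gene's strand, with the matches in capitals.
Nfkbia, chr12:55492648-55492897, minus strand: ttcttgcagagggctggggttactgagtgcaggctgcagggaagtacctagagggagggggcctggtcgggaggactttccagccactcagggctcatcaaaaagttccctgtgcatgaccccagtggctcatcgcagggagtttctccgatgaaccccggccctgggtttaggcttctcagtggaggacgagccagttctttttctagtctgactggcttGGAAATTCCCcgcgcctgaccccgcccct
Nfkbie, chr17:45555450-45555699, plus strand: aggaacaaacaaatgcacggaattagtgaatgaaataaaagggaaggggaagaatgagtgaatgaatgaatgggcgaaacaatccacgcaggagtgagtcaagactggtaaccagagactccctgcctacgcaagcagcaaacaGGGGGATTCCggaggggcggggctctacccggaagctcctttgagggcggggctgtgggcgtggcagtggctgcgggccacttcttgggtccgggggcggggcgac
Rel, chr11:23770971-23771219, minus strand: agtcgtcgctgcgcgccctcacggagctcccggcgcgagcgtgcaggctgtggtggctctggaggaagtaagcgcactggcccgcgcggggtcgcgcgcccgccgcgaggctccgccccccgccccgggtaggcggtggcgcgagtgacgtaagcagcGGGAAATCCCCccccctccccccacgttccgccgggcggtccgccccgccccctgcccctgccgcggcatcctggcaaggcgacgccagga

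The Nfkbia match GGAAATTCCC began 29 bases before the start site, the Rel run GGGAAATCCCC 92 bases and the Nfkbie match GGGGGATTCC 106 bases before it. Tnfaip3 held GGAAATCCCC at 12 bases and GGGACACCCC at 125 bases before 1 of its starts. Nfkb2 held GGGAATTCCCC at 39 and GGGGCTTTCC at 11 bases before its first start, GGAATGTCCC at 236 bases before the second, and GGGACTTTCC at 225 bases before the third, whose window overlaps the second. All 250 bases of the first Nfkb2 window and 234 of the third lie in annotated exons of the gene, as do 110 bases of this Tnfaip3 window.

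In vehicle cells of the liver-labelled library, Nfkb2, Rel, Relb and Nfkbie were higher in B cell-like cells than in any other named class, and Nfkbia was highest in neutrophil-like and B cell-like cells. Rel, the c-Rel subunit known from lymphocyte activation, was at 179 CPM (95% interval 161 to 198) in B cell-like cells of the liver-labelled library, above the next named class, monocyte-like cells, at 68.3 CPM. It was at 38.3 CPM in T cell-like and 28.7 CPM in neutrophil-like cells. Nfkb2, which encodes the p100 precursor of the non-canonical pathway, was at 79.1 CPM in B cell-like cells and between 6.89 and 21.7 CPM in the other named classes. Relb, the partner of p52, was at 75.7 CPM in B cell-like cells and at most 19.8 CPM in the other named classes. Nfkbie, an inhibitor known to bind c-Rel dimers, was at 48.6 CPM in B cell-like and 3.97 CPM in neutrophil-like cells. In the spleen-labelled library the B cell-like class, of 31 vehicle cells, was also the highest named class for Nfkb2 (102 CPM), Rel (148 CPM), Relb (46.4 CPM) and Nfkbie (74.2 CPM), but its intervals overlapped those of the next class.

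Neutrophil-like cells were the lowest class of the liver-labelled library for Nfkb1 and Rela and among the highest for Nfkbia. In the liver-labelled library, Nfkb1, the p105/p50 gene, was lowest in neutrophil-like cells (41.5 CPM) and at 146 CPM in B cell-like cells. Nfkbia was at 331 CPM in neutrophil-like and 329 CPM in B cell-like cells, whose intervals overlapped, and at 171 CPM in T cell-like and 54.1 CPM in granulocyte progenitor-like cells. Rela, the p65 gene, ranged from 21.4 CPM in neutrophil-like to 55.1 CPM in NK cell-like cells, the latter from 8 UMIs. Bcl3, an atypical IkB protein that works in the nucleus, was at 38.0 CPM in neutrophil-like and 6.09 CPM in granulocyte progenitor-like cells. Among whole classes of at least 20 cells in a group, the highest Nfkbia and Nfkbiz levels of both libraries were in the basophil-like cells of the spleen-labelled library. They were 1487 and 450 CPM in 20 vehicle cells and 1302 and 723 CPM in 50 low dose cells. Cluster 0 of the neutrophil-like cells of that library was higher for Nfkbia, at 1692 CPM in 116 vehicle and 1593 CPM in 189 low dose cells. Nfkbiz encodes IkB-zeta, a nuclear co-activator of secondary response genes. Tnfaip3, the A20 gene, was at 161 CPM in the 42 vehicle T cell-like cells of the spleen-labelled library and between 0.762 and 27.6 CPM in the named classes of the liver-labelled library.

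**Figure D1:**
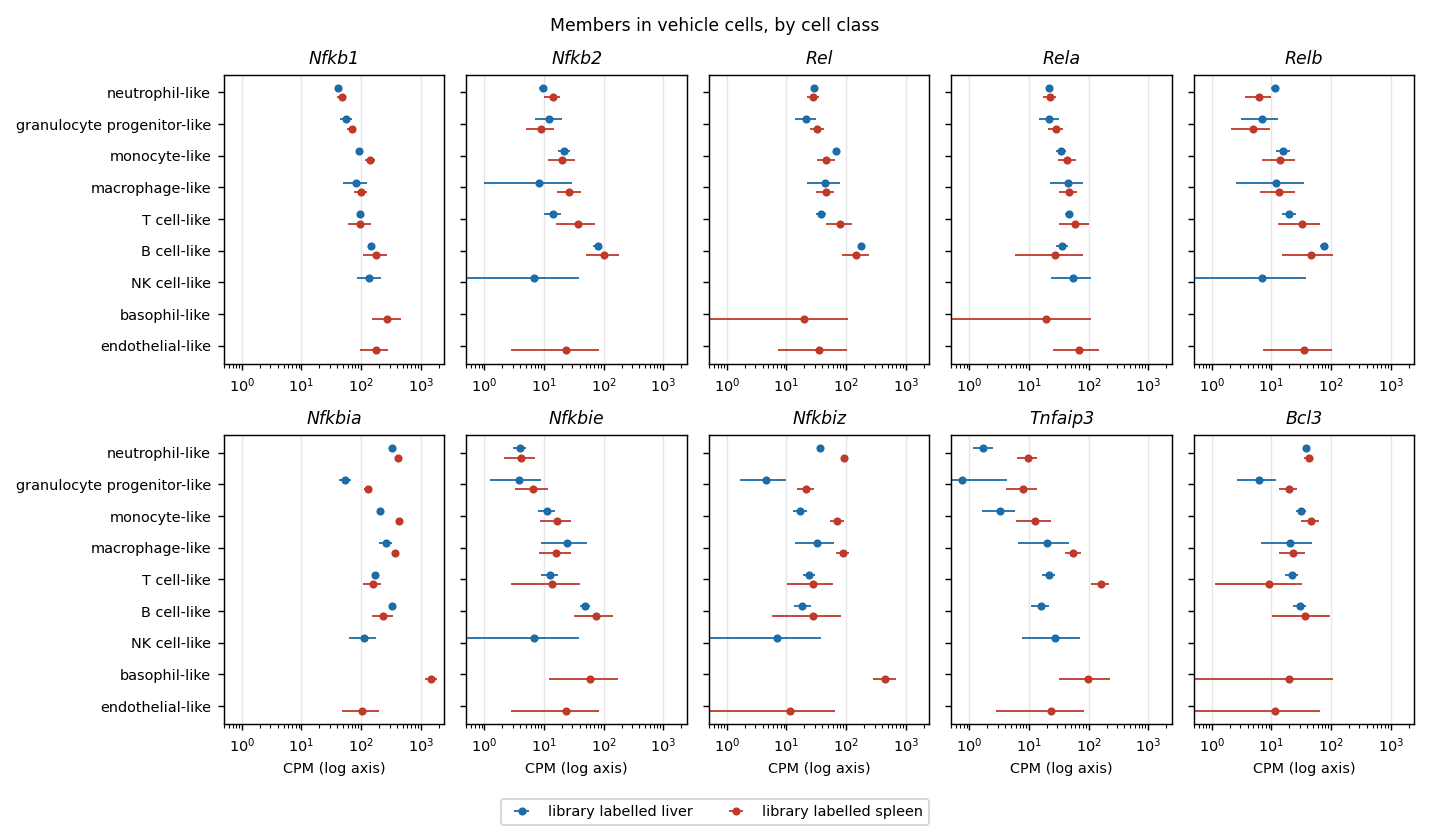
CPM of the 10 members in vehicle cells (log axis) for 9 cell classes, with exact Poisson 95% intervals of the summed UMIs, blue for the liver-labelled library and red for the spleen-labelled library, and classes with no UMI of the gene left out. B cell-like cells lie at the right for Rel (179 CPM), Nfkb2 and Relb, and basophil-like cells for Nfkbia (1487 CPM).

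At the high dose, Nfkbiz and the inhibitor gene Nfkbia had lower CPM than in vehicle in neutrophil-like cells of both libraries. Nfkb1 and Bcl3 differed little. CPM is a share of the UMIs, and the high dose cells were deeper, as given below, so CPM does not give mRNA per cell. Nfkbiz was at 36.9 CPM in vehicle, 34.9 CPM in low dose and 18.0 CPM in high dose cells in the liver-labelled library, and at 94.0, 139 and 57.8 CPM in the spleen-labelled library. Its log2 ratio of high dose to vehicle was -1.04 (interval -1.35 to -0.73) and -0.70 (-1.01 to -0.40), so the high dose was the lowest group in both. Nfkbia was at 331, 270 and 222 CPM in the liver-labelled library and at 422, 669 and 232 CPM in the spleen-labelled library. Its high dose ratios were -0.58 (-0.67 to -0.49), just inside the 1.5-fold limit, and -0.86 (-1.01 to -0.72).

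Among the subunits, Relb was at 11.5, 14.1 and 5.37 CPM and Rela at 21.4, 23.1 and 13.5 CPM in vehicle, low dose and high dose neutrophil-like cells of the liver-labelled library, with high dose ratios of -1.10 (-1.70 to -0.55) and -0.66 (-1.04 to -0.30). In the spleen-labelled library the Rela ratio was -0.39 (-0.99 to 0.20), and Relb had only 18 vehicle and 14 high dose UMIs. Rel was at 28.7, 35.0 and 23.4 CPM, and at 27.8, 34.3 and 19.3 CPM, high dose ratios of -0.30 (-0.59 to -0.02) and -0.53 (-1.09 to 0.01). Nfkb1 was 0.16 (-0.05 to 0.37) and 0.25 (-0.11 to 0.60) and Bcl3 0.19 (-0.03 to 0.40) and 0.12 (-0.27 to 0.51) on the log2 scale, all 4 intervals including 0. Tnfaip3 fell under the UMI minimum at this dose, with 27 vehicle and 4 high dose UMIs in the liver-labelled library and 28 and 9 in the spleen-labelled library.

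Counted over members, 3 of the 9 with enough UMIs in the liver-labelled library (Rela, Relb and Nfkbiz) were lower by at least 1.5-fold at the high dose, beside 18.4% of 8401 genes, and 3 of 7 in the spleen-labelled library (Nfkb2, Nfkbia and Nfkbiz), beside 6.65% of 5384 genes. None was higher, beside 3.71% and 6.41% of genes. Over all 10 members without the minimum, 4 were lower and 0 higher in the liver-labelled library, and 4 were lower and 1 higher (Nfkbie, 12 to 16 UMIs) in the spleen-labelled library. The share of all genes without the minimum was not counted, so no excess is read from these counts. The median log2 ratio was -0.32 over 9 members and -0.14 over all genes in the liver-labelled library, and -0.53 over 7 members and 0.03 over all genes in the spleen-labelled library. The genes as a whole were thus shifted downwards in the liver-labelled library.

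High dose neutrophil-like cells were few, deep and of another make-up. They numbered 241 against 1538 vehicle cells in the liver-labelled library and 156 against 360 in the spleen-labelled library, with a median of 20789 against 4890 and 14205.5 against 4904 UMIs per cell. In the spleen-labelled library, 1532 barcodes with no hashtag called had A0310 largest, beside 865 called high dose cells. High dose neutrophil-like cells there numbered 195 with MULTIseqDemux and 210 with the dominant hashtag. The part of the uncalled barcodes in depth and make-up was not tested. Cluster 4 of the liver-labelled library, led by the secondary granule genes Ngp, Camp and Ltf, held 60.2% of the high dose and 14.3% of the vehicle cells. Cluster 5, led by Saa3 and Il1b, held 0 high dose and 358 vehicle cells, and cluster 2 held 3 and 360. In the spleen-labelled library, cluster 0 held 4 high dose and 116 vehicle cells, with Nfkbia at 1692 CPM in its vehicle cells. Within clusters of at least 20 cells per group, Nfkbia was lower at the high dose in 3 of 3 clusters of the liver-labelled library (-0.71 to -0.13, the interval of 1 of them including 0) and 2 of 2 of the spleen-labelled library (-0.38 and -0.68). Relb was lower in 3 of 3 clusters of the liver-labelled library (-1.51 to -0.31), all 3 with few UMIs and intervals including 0. Rel, lower in the sum over clusters, was above vehicle in 3 of 3 of them (0.17 to 0.34) and below it in 2 of 2 clusters of the spleen-labelled library (-0.49 and -0.34), and all 5 intervals included 0. Rela ranged from -0.35 to 0.20 and from -0.94 to 0.45. Nfkb2 was at -0.32 and -0.94 in the sums over clusters. It was above vehicle in 3 of 3 clusters of the liver-labelled library (0.17 to 1.01), all 3 intervals including 0. In the spleen-labelled library it was below vehicle in 2 of 2 clusters (-1.93 and -0.09). Nfkbiz ranged from -0.48 to 0.06 and from -0.56 to -0.15. A weighting of clusters by their vehicle cells was limited to clusters with at least 10 cells in both groups, which held 53.3% of the vehicle cells in the liver-labelled library (without clusters 2 and 5) and 67.2% in the spleen-labelled library (without clusters 0 and 12). So weighted, Nfkbiz was at -0.20 and -0.23, and the count of lower members in the spleen-labelled library went from 3 to 0, beside 5.53% of genes. The Nfkbia ratio in the spleen-labelled library went from -0.86 to -0.14 with this weighting, above both cluster ratios given for it. The weighting also took in clusters too small for those ratios. These were cluster 8 of the spleen-labelled library (16 high dose cells) and clusters 6 and 13 of the liver-labelled library (13 and 15). Their part in the weighted values was not tested. Without cluster 5, Nfkbia was at -0.45 and Nfkbiz at -0.79 in the liver-labelled library.

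**Figure D2:**
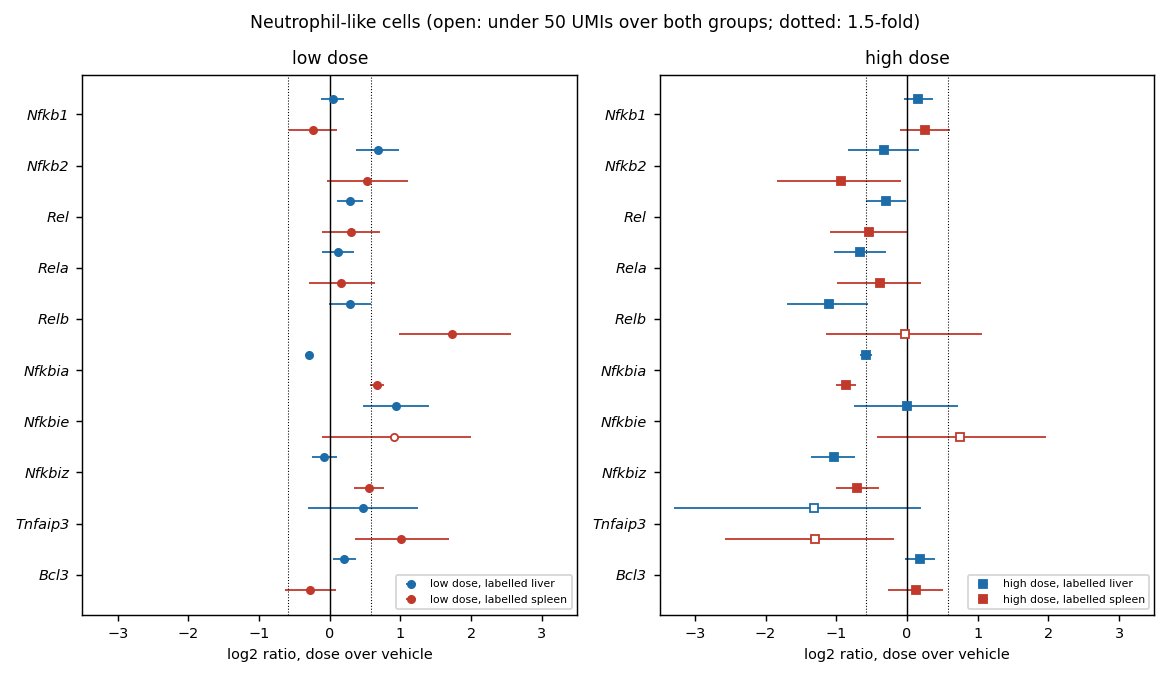
Log2 ratio of each dose to vehicle for the 10 members in neutrophil-like cells, with exact conditional 95% intervals, blue for the liver-labelled library, red for the spleen-labelled library, open symbols under 50 UMIs and dotted lines at 1.5-fold. At the high dose Nfkbiz lies at -1.04 and -0.70, and at the low dose Relb reaches 1.73 in the spleen-labelled library.

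At the low dose several members had higher CPM than in vehicle, and Nfkbia differed between the libraries. Nfkb2 was at 9.73 and 15.6 CPM in vehicle and low dose neutrophil-like cells of the liver-labelled library (0.68, interval 0.37 to 0.99) and at 13.9 and 20.1 CPM in the spleen-labelled library (0.53, -0.03 to 1.11). Nfkbie was at 3.97 and 7.57 CPM (0.93, 0.47 to 1.41), and had 12 and 30 UMIs in the spleen-labelled library. Relb was at 0.29 (-0.01 to 0.59) in the liver-labelled library and 1.73 (0.98 to 2.56) in the spleen-labelled library, where its 18 vehicle UMIs passed the minimum only together with 80 low dose UMIs, 39 of them from cluster 0. Nfkbia was at -0.30 (-0.36 to -0.24) in the liver-labelled library and 0.67 (0.57 to 0.76) in the spleen-labelled library.

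Of the 10 members, 2 (Nfkb2 and Nfkbie) were higher by at least 1.5-fold at the low dose in the liver-labelled library, beside 1.59% of 9017 genes, and 3 of 9 (Relb, Nfkbia and Tnfaip3) in the spleen-labelled library, beside 5.21% of 5966. None was lower, beside 3.35% and 8.51%. In the spleen-labelled library Relb and Tnfaip3 had 18 and 28 vehicle UMIs in these cells. Both passed the UMI minimum only through the low dose group. Within clusters of the liver-labelled library Nfkb2 was above vehicle in 6 of 7, with log2 ratios from -0.10 to 1.13, and Rel in 6 of 7. Nfkbia was below vehicle in 6 of 7 of them (-1.14 to 0.29). Nfkb1 was below vehicle in 2 of 7 of them and in 4 of 4 clusters of the spleen-labelled library (-1.19 to -0.11). For each of these 4 genes the intervals of several clusters included 0. In the spleen-labelled library Nfkbia ranged from -0.09 to 0.73 over 4 clusters, and a further cluster, number 12, held 114 low dose and 2 vehicle cells with Nfkbia at 1315 CPM. Weighted by vehicle clusters and without cluster 12, the Nfkbia ratio there was 0.13, that of Tnfaip3 went from 1.00 to -0.03, and that of Relb was 1.77.

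The immediate early genes, a list of 9 such as Fos, Jun and Egr1 that are known to respond to cell handling, had the same order of groups as Nfkbia in neutrophil-like cells. Their sum was 2528, 2070 and 785 CPM in vehicle, low dose and high dose cells of the liver-labelled library and 4234, 5543 and 1672 CPM in the spleen-labelled library. Erythroid markers, 5 genes, summed to 299, 140 and 27.0 CPM and to 150, 4551 and 343 CPM. The 5 basophil markers summed to 1.28, 3.23 and 66.0 CPM in the liver-labelled library, and the 6 hepatocyte markers to 22.1, 56.4 and 123 CPM in the spleen-labelled library, so both were highest at the high dose there. Their part in the result was not tested. Thinned to 500 UMIs per cell, with no cell left out, 23.9%, 31.1% and 14.1% of vehicle, low dose and high dose neutrophil-like cells of the spleen-labelled library had an Nfkbia UMI, and unthinned the shares were 76.4%, 75.6% and 79.5%. In the liver-labelled library the thinned shares were 19.7%, 12.6% and 17.0%, whose last 2 values run against the CPM order, so no order is read from them. No cell class lacks Nfkbia, so a share from free RNA could not be set beside these.

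In monocyte-like cells at the low dose, the non-canonical subunits Relb and Nfkb2 and the feedback genes Nfkbie and Nfkbiz were above vehicle by at least 1.5-fold in both libraries, as was Tnfaip3 in the spleen-labelled library. Of these, the Relb ratio stayed past the limit under every alternative that recomputed the ratios, at 0.92 or more and 1.26 or more. The lowest values of Nfkb2 (0.37) and Nfkbie (0.42) in the liver-labelled library and of Nfkbiz (0.42) in the spleen-labelled library were inside it. These alternatives did not change the UMI minimum, and Relb had only 53 and 11 vehicle UMIs. Under the highest minimum tried, no member was counted as higher in the spleen-labelled library. In monocyte-like cells of the liver-labelled library, Relb was at 15.9 CPM in vehicle, 36.5 CPM in low dose and 15.98 CPM in high dose cells. Its low dose ratio was 1.20 (0.66 to 1.74), and the spleen-labelled library, with 13.8, 45.1 and 28.8 CPM, gave 1.70 (0.72 to 2.81). Nfkb2 was at 21.7, 32.8 and 36.7 CPM and at 20.1, 58.0 and 44.0 CPM, low dose ratios of 0.60 (0.08 to 1.11) and 1.53 (0.70 to 2.43). At the high dose the Nfkb2 ratio was 0.76 (0.02 to 1.46) in the liver-labelled library, and 0.14 to 0.80 under the alternatives. It was under the UMI minimum in the spleen-labelled library, with 16 vehicle and 26 high dose UMIs. The 11 neutrophil markers summed to 11065, 14663 and 32312 CPM in vehicle, low dose and high dose monocyte-like cells of the liver-labelled library, none of them at 0, and their part in the result was not tested.

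Nfkbie and Nfkbiz passed 1.5-fold in monocyte-like cells of both libraries and Nfkbia in the liver-labelled library alone. Nfkbia was at 205, 332 and 233 CPM (low dose 0.70, 0.54 to 0.85) and at 435, 507 and 340 CPM (0.22, 0.02 to 0.42). Nfkbie gave 0.76 (0.05 to 1.46) and 1.36 (0.42 to 2.39), and Nfkbiz 1.01 (0.46 to 1.55) and 0.63 (0.14 to 1.12). Tnfaip3 had 10 vehicle and 45 low dose UMIs in the spleen-labelled library (1.94, 0.93 to 3.10). In the liver-labelled library it was under the minimum, with 11 and 31 UMIs (2.33, 1.30 to 3.47). By contrast Rel, at -0.11 (-0.44 to 0.22) and 0.26 (-0.37 to 0.91), Rela, at 0.09 (-0.36 to 0.54) and 0.26 (-0.40 to 0.93), and Nfkb1, at 0.26 (-0.0032 to 0.52) and -0.03 (-0.41 to 0.35), stayed within 1.5-fold of vehicle.

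Of the 9 members with enough UMIs, 5 were higher at the low dose in monocyte-like cells of the liver-labelled library, beside 4.56% of 7463 genes, and 5 of 10 in the spleen-labelled library, beside 8.22% of 4175. None was lower, beside 4.9% and 4.41%. Without the minimum the counts of higher members were 6 and 5 of 10, with no share of all genes counted beside them. The medians were 0.60 over 9 members and 0.48 over 10, with -0.00027 and 0.04 over all genes. In the spleen-labelled library, Nfkb2, Relb, Nfkbie and Tnfaip3 reached 50 UMIs only through the low dose group, their vehicle UMIs being 10 to 16. So did Nfkbie in the liver-labelled library, with 37 vehicle UMIs. At the high dose 1 of 8 members (Nfkb2) and 1 of 6 (Rel) were higher, beside 8.82% and 9.66%, and 0 lower, beside 13.3% and 5.34%. Rel had 37 vehicle UMIs and reached 50 only through the high dose group. The classes held 158, 98 and 26 cells, and 76, 80 and 40 cells.

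In macrophage-like cells of the spleen-labelled library, as first processed, all 10 members were highest in the low dose group, as were 32.6% of 7634 genes. This did not hold under every alternative of the processing. The lowest low dose ratios were -0.20 for Rel and -0.039 for Tnfaip3, both below vehicle. Relb was at 13.3, 31.7 and 13.6 CPM, a low dose ratio of 1.25 (0.25 to 2.40). Nfkbia was at 367, 561 and 332 CPM (0.61, 0.41 to 0.81), Nfkb2 at 26.6, 49.6 and 30.3 CPM (0.90, 0.17 to 1.69) and Bcl3 at 22.6, 51.7 and 36.1 CPM (1.19, 0.42 to 2.05). Tnfaip3 was at 55.9, 86.9 and 39.1 CPM (0.64, 0.12 to 1.18), and Rel at 45.3, 52.4 and 36.5 CPM (0.21, -0.39 to 0.84). Of the 10 members, 6 were higher by at least 1.5-fold at the low dose, beside 8.53% of 5419 genes. Of these 6, Relb, Nfkbie, Bcl3 and Nfkb2 had 10 to 20 vehicle UMIs and Tnfaip3 42, and so reached 50 only through the low dose group. At the high dose 2 of 9 (Nfkbie and Bcl3, 12 and 17 vehicle UMIs) were higher, beside 10.9% of 6459. None was lower at either dose, beside 4.71% and 5.4%. The median was 0.62 over the members and 0.02 over all genes at the low dose, and -0.01 and 0.04 at the high dose. Cluster 4, led by Arg1 and C1qa, held 50, 84 and 83 of the 56, 109 and 122 cells, and within it the low dose ratios were 1.47 for Relb, 0.91 for Nfkb2, 0.65 for Nfkbia and 0.66 for Tnfaip3. With hashtags called by MULTIseqDemux 4 of the 10 members were higher at the low dose, and with the dominant hashtag 3. The shares of all genes under these 2 settings are not given, so no excess is read from them. In the liver-labelled library, Nfkbia was the only member with 50 UMIs in the 65 vehicle, 54 low dose and 64 high dose macrophage-like cells, at 259, 484 and 166 CPM. Rel and Nfkbie, with few UMIs, were highest in vehicle there, at 44.6 and 24.3 CPM.

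The low dose group was also the most frequent peak of the members in neutrophil-like cells, for 7 of 10 in the liver-labelled library, beside 27.8% of 9279 genes, and 8 of 10 in the spleen-labelled library, beside 29.8% of 6670. In monocyte-like cells it was the peak for 5 of 9, beside 31.8%, and 6 of 10, beside 32.4%. Among the other classes it was the peak in T cell-like cells for 6 of 10 in the liver-labelled library, beside 36.1%, and 2 of 10 in the spleen-labelled library, beside 26.7%, B cell-like cells of the liver-labelled library for 5 of 10, beside 35.9%, and granulocyte progenitor-like cells there for 3 of 7, beside 30.1%. The immediate early list did not move with the monocyte-like and macrophage-like values at the low dose, at 1213 and 1209 CPM in vehicle and low dose monocyte-like cells of the liver-labelled library, 6194 and 5705 CPM in those of the spleen-labelled library, and 3535 and 3296 CPM in macrophage-like cells. The 5 erythroid markers were higher with them in the spleen-labelled library, at 17.6 and 1479 CPM in vehicle and low dose monocyte-like and at 20.0 and 1993 CPM in macrophage-like cells, and lower in monocyte-like cells of the liver-labelled library, at 1017 and 57.5 CPM. The 11 neutrophil markers, none of them at 0, summed to 1032, 5750 and 6390 CPM in macrophage-like cells of the spleen-labelled library. Their part in the result was not tested.

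**Figure D3:**
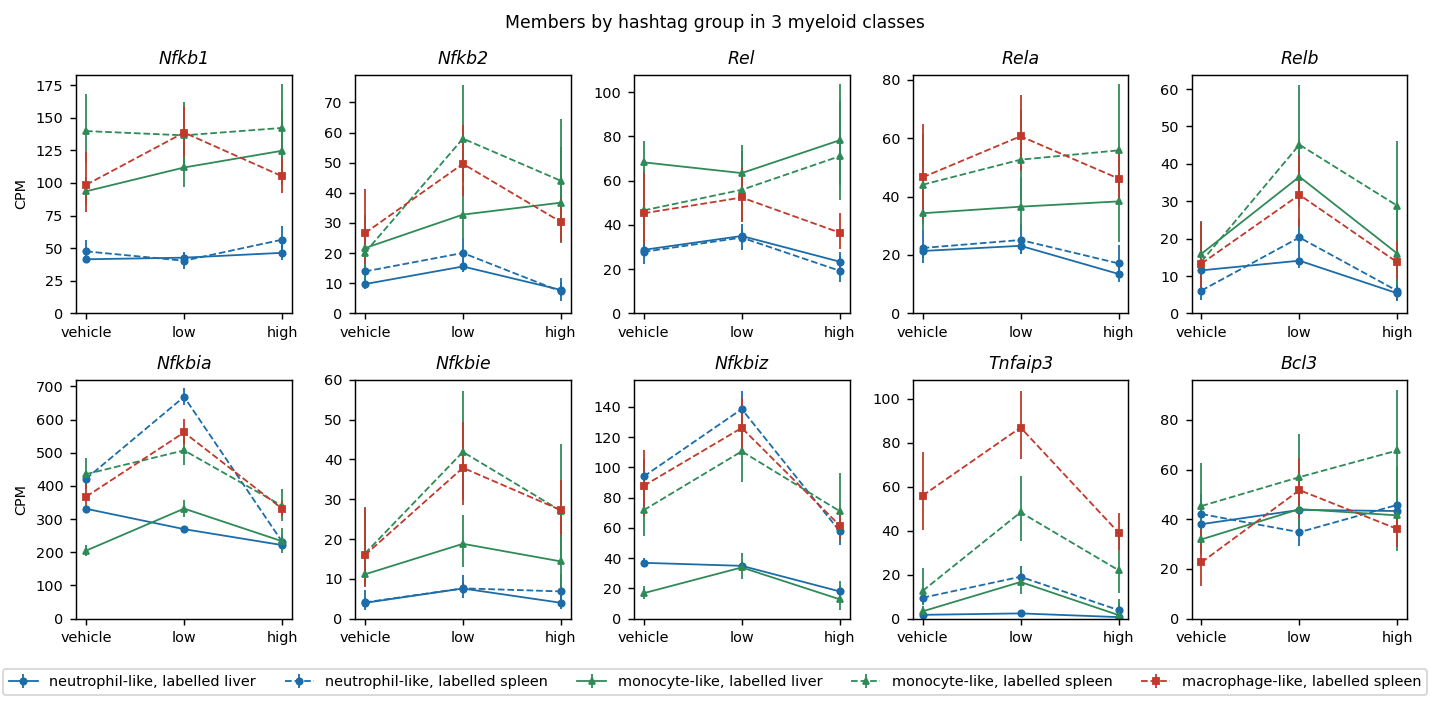
CPM of the 10 members in vehicle, low dose and high dose cells of 3 myeloid classes (solid lines for the liver-labelled library, dashed for the spleen-labelled library), with exact Poisson 95% intervals and lines joining the groups of a class. In macrophage-like cells, drawn for the spleen-labelled library only, every member is highest at the low dose as first processed, though not for Rel and Tnfaip3 under every alternative. Nfkbia in neutrophil-like cells is highest at the low dose (669 CPM) in the spleen-labelled library and in vehicle (331 CPM) in the liver-labelled library.

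**Figure D4:**
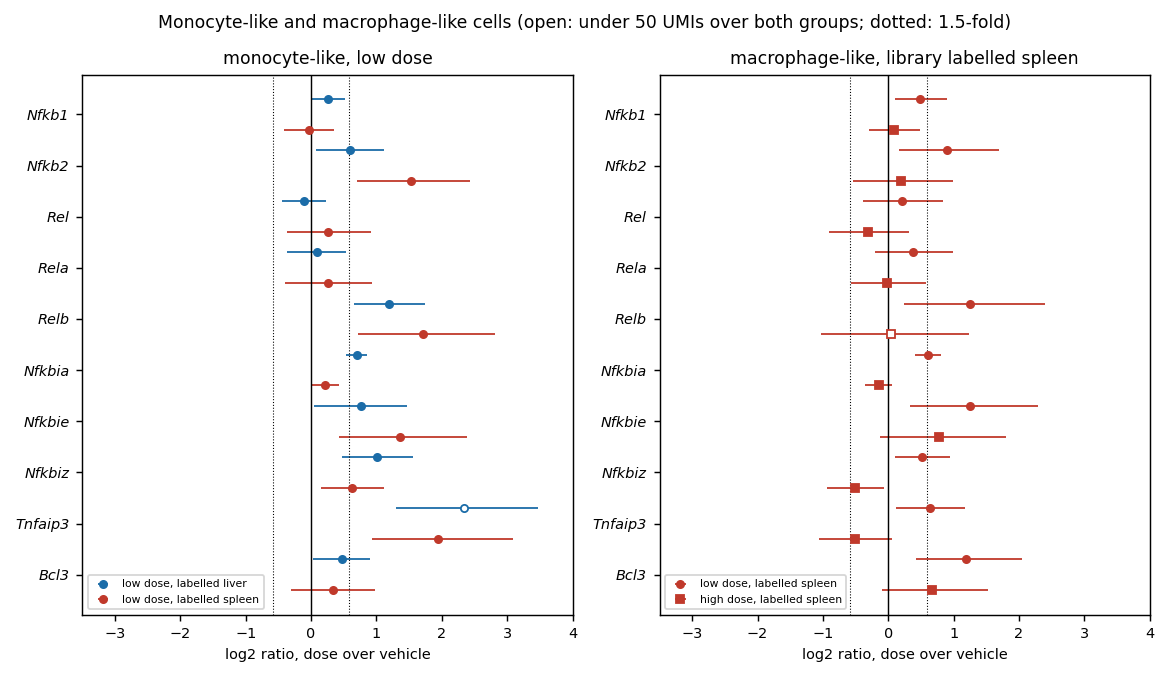
Log2 ratios of the members with exact conditional 95% intervals, at the low dose in monocyte-like cells of both libraries (left) and at both doses in macrophage-like cells of the spleen-labelled library (right), with open symbols under 50 UMIs and dotted lines at 1.5-fold. Relb lies at 1.20 and 1.70 in monocyte-like and at 1.25 in macrophage-like cells at the low dose, and at 0.03 in the latter at the high dose.

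Granulocyte progenitor-like cells, the precursors of neutrophils by their markers, are described in the liver-labelled library at both doses and in the spleen-labelled library, where only 14 were high dose cells, at the low dose alone. In the liver-labelled library Nfkbia was at 54.1, 73.6 and 81.6 CPM in 40 vehicle, 42 low dose and 93 high dose cells, a high dose ratio of 0.59 (0.20 to 1.00). Rel was at 21.3, 27.3 and 34.8 CPM (0.71, 0.09 to 1.37). Of 5 members with enough UMIs, 3 (Nfkb2, Rel and Nfkbia) were higher and 0 lower at the high dose, beside 9.21% and 5% of 7081 genes. Nfkb2, with 16 vehicle and 51 high dose UMIs, and Rel, with 28 and 96, reached the minimum only through the high dose group. The 7 T cell markers summed to 270, 519 and 896 CPM and the 5 erythroid markers to 854, 4228 and 5406 CPM in the 3 groups, none of them at 0, and their part in the result was not tested. Of 4 members tested at the low dose 0 were higher or lower, beside 4.99% and 4.37%. In the spleen-labelled library Nfkbia was at 130 and 94.0 CPM in 67 vehicle and 80 low dose cells (-0.47, -0.75 to -0.19), and 1 of 7 members (Nfkb2, 15 and 35 UMIs, past the minimum only with the low dose group) was higher and 0 lower, beside 5.88% and 5.57% of 6719 genes. The difference from neutrophil-like cells was not tested.

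In the liver-labelled library at most 2 of the 10 members were past 1.5-fold in T cell-like or B cell-like cells at either dose. In T cell-like cells of the liver-labelled library, the most numerous class after neutrophil-like cells, Rela was at 47.3, 30.6 and 32.2 CPM in vehicle, low dose and high dose cells, ratios of -0.63 (-0.98 to -0.27) and -0.55 (-0.88 to -0.23), and was below vehicle in 4 of 4 clusters at both doses. Bcl3 was at 21.8, 35.4 and 24.9 CPM, a low dose ratio of 0.70 (0.27 to 1.14), and was above vehicle in 4 of 4 clusters at the low dose. Most of these cluster intervals included 0. For Rela only cluster 3 at the low dose and cluster 0 at the high dose excluded it. For Bcl3 only cluster 7 did, with 5 vehicle UMIs. Nfkbia was at 171, 198 and 190 CPM and Rel at 38.3, 39.0 and 40.3 CPM. Of the 10 members, 1 was lower (Rela) and 1 higher (Bcl3) at the low dose, beside 1.96% and 2.82% of 8076 genes, and 0 of 10 in either direction at the high dose, beside 1.7% and 3.44% of 8418.

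In the spleen-labelled library, Tnfaip3 stood apart in T cell-like cells, at 161, 125 and 49.6 CPM from 35, 80 and 68 UMIs, a high dose ratio of -1.69 (-2.30 to -1.06). The same gene was at 21.5, 24.2 and 15.5 CPM in the liver-labelled library (-0.47, -0.96 to 0.02). Nfkbia was at 156, 284 and 240 CPM there, ratios of 0.86 (0.33 to 1.44) and 0.62 (0.11 to 1.18). Of 4 members with enough UMIs, 2 were higher at the low dose and 0 lower, beside 11.5% and 5.41% of 2497 genes, and at the high dose 2 of 8 were lower (Rel and Tnfaip3) and 3 higher (Nfkb1, Nfkbia and Nfkbiz), beside 8.73% and 20.7% of 4307. Vehicle UMIs were 6 for Nfkbiz, 21 for Nfkb1 and 34 for Nfkbia, so all 3 higher members reached the minimum only through the high dose group, and both higher members at the low dose (Nfkbia and Nfkbiz) only through that group. The vehicle class held 42 cells, and B cell markers summed to 36.7 CPM in vehicle and 3013 CPM in high dose T cell-like cells, and erythroid markers to 22.9 CPM in vehicle and 5077 CPM in low dose cells, whose part in the result was not tested.

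In B cell-like cells of the liver-labelled library, where most subunits were highest, Rel was at 179, 193 and 161 CPM, Nfkb1 at 146, 152 and 145 CPM and Nfkbia at 329, 305.2 and 342 CPM, all within 1.5-fold. Relb was at 75.7, 67.8 and 58.3 CPM, a high dose ratio of -0.38 (-0.75 to -0.01). Bcl3 was at 30.01, 51.1 and 30.6 CPM (low dose 0.77, 0.30 to 1.25) and Nfkbiz at 18.6, 28.7 and 24.1 CPM (0.63, 0.01 to 1.26). These were the 2 of 10 members higher at the low dose, beside 4.33% of 6995 genes, 0 were lower, beside 4.45%, and 0 of 10 were past the limit at the high dose, beside 2.5% higher and 5.88% lower of 6791. Of the low dose B cell-like cells, 151 lay in cluster 18, which held 1 vehicle cell, while cluster 20 held 46 vehicle cells and 1 low dose cell. Within cluster 1, the main B cell-like cluster, the low dose ratio was 0.02 for Bcl3 and -0.02 (-0.89 to 0.81) for Nfkbiz.

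Between the libraries, Nfkbiz and Tnfaip3 CPM was higher and Relb CPM lower in vehicle neutrophil-like cells of the spleen-labelled library. In vehicle monocyte-like cells of that library, Nfkbiz and Nfkbia CPM was higher. Nfkbiz was at 36.9 CPM in neutrophil-like cells of the liver-labelled library and 94.0 CPM in those of the spleen-labelled library (1.35, 1.14 to 1.56), and at 16.8 and 71.7 CPM in monocyte-like cells (2.09, 1.53 to 2.65). Tnfaip3 was at 1.73 and 9.50 CPM in neutrophil-like cells (2.46, 1.64 to 3.28) and at 21.5 and 161 CPM in T cell-like cells (2.90, 2.26 to 3.52). Nfkbia was at 205 and 435 CPM in monocyte-like cells (1.09, 0.90 to 1.28) and at 331 and 422 CPM in neutrophil-like cells (0.35, 0.26 to 0.44), but its ratios were -0.13 (-0.68 to 0.37) in T cell-like and -0.51 (-1.14 to 0.07) in B cell-like cells. Relb was at -0.91 (-1.70 to -0.21) in neutrophil-like, -0.20 (-1.29 to 0.75) in monocyte-like and -0.71 (-2.35 to 0.55) in B cell-like cells. In neutrophil-like cells 2 of 10 members were higher and 1 lower (Relb, 11.5 and 6.11 CPM), beside 7.2% and 14.1% of 8192 genes. In monocyte-like cells 2 of 9 were higher and 0 lower, beside 9.81% and 20.3%, in T cell-like cells 4 of 9 and 1, beside 20.9% and 21.5%, in B cell-like cells 1 of 8 and 1, beside 11.6% and 24.2%, and in granulocyte progenitor-like cells 2 of 4 (Rel and Nfkbia) and 0, beside 12% and 13.7%. Tissue, library and the 2528 and 4234 CPM of immediate early genes cannot be told apart here.

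The rest of the pathway was read in 4 lists of 83 genes, chosen with earlier results of these data known. In the sum over clusters of high dose neutrophil-like cells, textbook NF-kB targets had a lower median ratio than the members in both libraries. Of 23 targets with enough UMIs, 14 were lower and 0 higher in the liver-labelled library (median -1.08), beside 18.4% and 3.71% of all genes, and 11 of 21 lower and 1 higher in the spleen-labelled library (median -0.62), beside 6.65% and 6.41%. The target Il1b was among the leading genes of clusters 2 and 5 of the liver-labelled library, and the target Cxcl2 among those of cluster 0 of the spleen-labelled library. These clusters held 3, 0 and 4 high dose cells, so the counts of lower targets are not independent of cluster make-up. Without cluster 5 of the liver-labelled library, 11 of 21 targets were lower (median -0.82), beside 11% of genes. With clusters weighted by their vehicle cells as above, 10 of 23 were lower and 0 higher (median -0.37), beside 19.9% and 7.27%, and in the spleen-labelled library 4 of 21 were lower and 4 higher (median 0.01), beside 5.53% and 8.23%. The members so weighted had medians of -0.29 and -0.14, so the targets no longer had the lower median in the spleen-labelled library. Ccrl2, a chemerin-binding receptor, was at 33.1 CPM in vehicle and 1.56 CPM in high dose cells (-4.41, -5.55 to -3.47) and at 279 and 37.7 CPM (-2.89, -3.22 to -2.57). Ccl3, the chemokine MIP-1-alpha, was at 6.65 and 0.693 CPM (-3.26, -5.17 to -1.86) and at 30.2 and 8.56 CPM (-1.82, -2.60 to -1.11). The cytokine gene Tnf, at 12.4 and 16.6 CPM and at 17.7 and 18.8 CPM, and the protease gene Plau, at 0.34 (-0.23 to 0.88) and 0.33 (-0.51 to 1.18), were not lower. Of 20 targets with enough UMIs in both libraries, 14 were below vehicle in both and 4 above it in both, in sums over clusters. The share of all genes below vehicle in both was not counted. The median of all genes was -0.14 in the liver-labelled library and 0.03 in the spleen-labelled library.

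Of the kinases and adaptors, 5 of 21 were lower and 1 higher in the liver-labelled library (median -0.38) and 1 of 15 lower in the spleen-labelled library (median -0.10), beside 18.4% and 6.65% of all genes lower. Tab2, an adaptor of the TAK1 kinase, was at -0.62 (-0.85 to -0.41) and -0.59 (-0.98 to -0.20), Tbk1 at -0.57 and -0.42, and Ikbke at 0.61 (0.11 to 1.10) and 0.33 (-0.46 to 1.13). Of the receptors, 3 of 9 and 2 of 8 were lower and 0 and 1 higher, beside the same shares of all genes. Cd14, the lipopolysaccharide co-receptor, was at -0.55 (-0.70 to -0.40) and -1.01 (-1.16 to -0.85), Tnfrsf1b at -0.92 and -0.34, and Tlr2 at 0.34 and 0.01. Of the other inhibitors, 1 of 13 and 2 of 11 were lower and 0 higher. Zc3h12a, the mRNA-degrading regnase-1, was at -0.82 (-1.40 to -0.28) and -0.70 (-1.58 to 0.12), and Pdlim2 at -0.26 and -0.34. The A20 partner Tnip1 and Commd1 were at 0.13 and 0.22 in the liver-labelled library and 0.11 and 0.01 in the spleen-labelled library. All these values are sums over clusters. With clusters weighted as above, 2 of 21 and 0 of 15 kinases and adaptors were lower (medians -0.04 and 0.04), beside 19.9% and 5.53%. Of the receptors, 2 of 9 and 0 of 8 were lower (medians -0.18 and 0.26). Of the other inhibitors, 0 of 13 and 1 of 11 were lower (medians 0.18 and -0.00072). Higher were 1 and 0, 0 and 1, and 0 and 1, beside 7.27% and 8.23%.

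**Figure D5:**
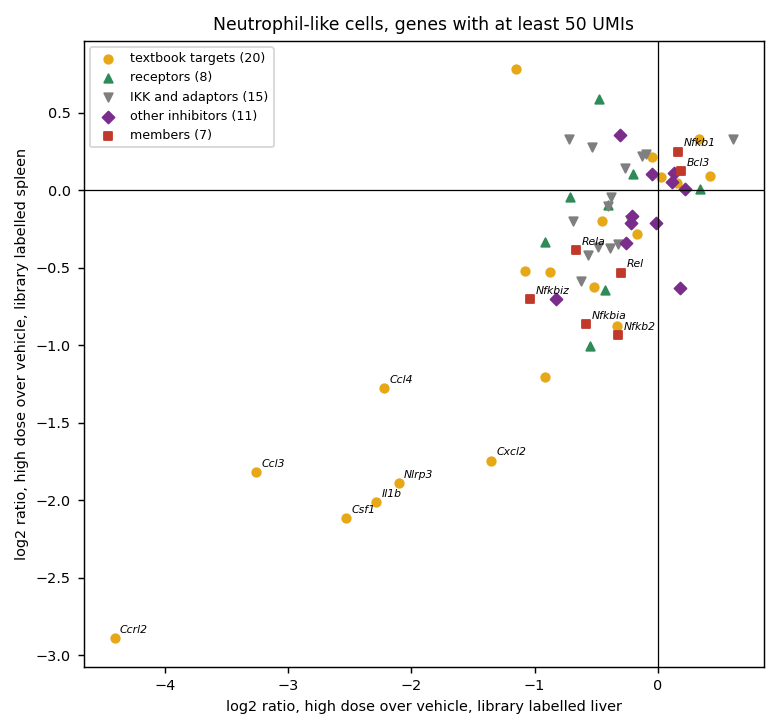
Log2 ratio of high dose to vehicle in neutrophil-like cells of the liver-labelled library (horizontal) and the spleen-labelled library (vertical), each point 1 gene of the 5 lists with at least 50 UMIs in both libraries, members in red squares. Of 20 textbook targets, 14 lie below 0 in both, Ccrl2 farthest at -4.41 and -2.89, and the 7 members lie between -1.04 and 0.25. Values are sums over clusters, and the median of all genes, not drawn, was -0.14 and 0.03.

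At the low dose the targets went both ways in these cells. Of 24, 4 were lower and 3 higher in the liver-labelled library, beside 3.35% and 1.59% of all genes, and 0 of 22 lower and 10 higher in the spleen-labelled library, beside 8.51% and 5.21%. Ccl3 was at 6.65 and 3.65 CPM in vehicle and low dose cells of the former and at 30.2 and 123 CPM in the latter, log2 ratios of -0.87 (-1.38 to -0.37) and 2.03 (1.70 to 2.37). In monocyte-like cells 11 of 16 targets were higher and 0 lower at the low dose in the liver-labelled library (median 1.13), beside 4.56% and 4.9%, and 5 of 15 higher and 2 lower in the spleen-labelled library (median 0.17), beside 8.22% and 4.41%. In macrophage-like cells of the spleen-labelled library 9 of 25 were higher and 1 lower, beside 8.53% and 4.71%. In T cell-like cells of the liver-labelled library 2 of 10 targets (Il1b and Ccl5) were lower and 0 higher at the low dose, beside 1.96% and 2.82%. At the high dose 1 of 10 (Il1b) was lower, beside 1.7%. The 11 neutrophil markers, none of them at 0, summed to 1561, 1373 and 1250 CPM in vehicle, low dose and high dose cells of this class. Their part in the result was not tested. In B cell-like cells 3 of 11 and 2 of 9 were higher, beside 4.33% and 2.5%, and 0 lower.

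Over 35 combinations of class, library and hashtag group with at least 50 cells, the genes whose level ran most like Nfkbia were Map3k8 (Spearman rho 0.85), Mcl1 (0.83), Zfp36 (0.82), Themis2 (0.81) and the member Nfkbiz (0.79), of 8100 genes. Those most like Relb were the members Nfkb2 (0.87) and Nfkb1 (0.84) with Kdm2a (0.86), Spata2 (0.86) and Nedd9 (0.84). The combinations share libraries and cell classes, and depth differs between them, so these values describe the profiles only.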

How the data were processed

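Single-cell RNA and hashtag oligos were counted in a pair of droplet libraries. What the authors deposited is a filtered matrix of raw UMI counts for each, genes and hashtags together, from Cell Ranger (5.0.0 per the matrix header, 6.0.0 per the submitters' processing notes) on mm10, not normalized and without cell types. Hashtags were called with HTODemux (Seurat 5.3.0, R 4.3.3) with its quantile set to 0.99, keeping barcodes positive for 1 hashtag. Clustering was done separately per library, on SCTransform residuals (sctransform 0.4.2) with 30 principal components and resolution 0.8, with 93 genes, the members and pathway lists among them, left out of the variable features.

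The name X-like was given to a cluster where at least 3 markers, and over 60% of a list, were raised by 1 on the log2 scale over the median cluster in at least 10% of its cells; these thresholds were set after the data were seen. Unnamed clusters were left out of the comparisons. Doublets between hashtags were removed, and Scrublet (scanpy 1.11.5) called 248 barcodes (2.59%) and 1 (0.0207%), too few in the second library to have worked; they were left out in an alternative only.

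Counts were summed per class and group and scaled to CPM with exact Poisson 95% intervals. Ratios have exact conditional binomial and shares Clopper-Pearson intervals, which cover counting error only. With 1 pooled sample per group no test was made. Classes with at least 20 cells per group were compared, and a gene entered with at least 50 UMIs over both groups. Shares were computed after thinning to 500 UMIs. Pathway genes were named by a rule on the mean log2 ratio of both libraries at the high dose in neutrophil-like cells. The ratio code was tested on simulated data. Sums and intervals were computed in Python 3.11.15 with scipy 1.17.1, pandas 2.3.3 and numpy 2.4.6. The members and lists were chosen with earlier results of these data known.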

Additional observations from a re-analysis of the deposited data

Results flagged for a closer look

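The log2 ratio of Nfkbia between low dose and vehicle neutrophil-like cells was -0.30 in the liver-labelled library and 0.67 in the spleen-labelled library, so the 2 libraries went in opposite directions. The difference between them was not tested, since each group was 1 pooled sample per library.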

How the results depend on the processing

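No paired analysis was possible because each group was 1 pooled sample per library. The alternatives for monocyte-like and macrophage-like cells and the left-out cluster were chosen after seeing the data. Counts are of members past 1.5-fold, at the low or high dose, in the spleen-labelled library unless the liver-labelled library is named. They stand without the number of members tested and without the share of all genes, so no excess over all genes is read from them. That share can move with the processing. For neutrophil-like cells at the high dose, 18.4% of genes were lower in the liver-labelled library as first processed. The share was 19.9% with clusters standardized and 11% without cluster 5. With MULTIseqDemux, 0 were higher and 1 lower in macrophage-like cells at the high dose; with all variable features, 0 were higher there. With a minimum of 10 UMIs, at the high dose 5 were higher in monocyte-like and 1 in neutrophil-like cells, and 1 lower in monocyte-like cells of the liver-labelled library. With a minimum of 200 UMIs, 1 was higher in macrophage-like cells at the low and 0 at the high dose, 0 in monocyte-like cells at both doses (liver-labelled library, 1 and 0), and 1 in neutrophil-like cells at the low dose in each library. With the cell filter (200 genes, 10% mitochondrial UMIs), 1 was higher in macrophage-like and 2 in monocyte-like cells at the high dose, 2 in monocyte-like cells at the low dose, and 1 lower in these at the high dose. Centred on the median of all genes, 0 were higher in monocyte-like cells at the high and 5 in neutrophil-like cells at the low dose. With clusters standardized to vehicle shares, 1 was higher in macrophage-like cells at the high and 1 in neutrophil-like cells at the low dose, and 0 lower in high dose neutrophil-like cells. With the dominant hashtag, 3 were higher in macrophage-like cells at the low and 0 at the high dose, where 1 was lower, and 2 in monocyte-like cells at the high dose. With log-normalization, 1 was higher in macrophage-like and 2 in monocyte-like cells at the high dose (liver-labelled library, 0, and 1 lower), and 3 in monocyte-like cells at the low dose. With a mean over cells, 6 were lower in neutrophil-like cells of the liver-labelled library and 5 of the spleen-labelled library at the high dose, 1 higher at the low dose, and 0 higher in monocyte-like cells of the liver-labelled library at the high dose. Resolution 0.4 gave 2 higher in monocyte-like cells at the high dose and no macrophage-like class; resolution 1.6 gave 0 in macrophage-like cells, and 0 higher and 1 lower in monocyte-like cells of the liver-labelled library. With granulocyte progenitor-like cells added, 1 was higher in neutrophil-like cells of the liver-labelled library at the high dose, and without the 20 most abundant genes 2 in monocyte-like cells. Of 44 member ratios past 1.5-fold, 5 changed sign under an alternative, as did 33 of 101 within it. The 5 were, with clusters standardized, Tnfaip3 at the low dose (-0.033) and Nfkb2 at the high dose (0.20), both in neutrophil-like cells, and, with MULTIseqDemux, Nfkbia at the high dose in macrophage-like cells of the liver-labelled library (0.079), Tnfaip3 at the low dose (-0.039) and Nfkbie at the high dose (-0.064) in macrophage-like cells. The median of the textbook targets in high dose neutrophil-like cells also changed sign with clusters standardized (0.0075). The weighting left out clusters with under 10 cells in a group. The cause was not tested. Without Scrublet doublets no count or ratio moved.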
